A study of Mus musculus with 6 samples.

Results

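The proteasome genes of i660BM cells are described here with and without induction of PU.1. This line grew from pro-B cells, early B cell precursors, of C57BL/6 mice and holds a PU.1 that doxycycline switches on. They were taken as the genes whose symbol is Psm, a letter from a to g and a digit, and the immunoproteasome genes Psmb8, Psmb9 and Psmb10 were left out. This pattern found 46 of the 23793 genes and gene groups in the table, and the authors had tested 44 of them. Messenger RNA had been sequenced from 3 induced libraries, made from cells given doxycycline at 70 ng/ml for 48 h, and from 3 non-induced libraries. Both groups were the same line in medium with interleukin 7, and no library received doxycycline without PU.1, so the drug and the factor cannot be told apart. Spi1 encodes PU.1, a transcription factor with an ETS domain that works in myeloid and B cells.

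The table held 1 FPKM value per gene and group (fragments scaled to transcript length and sequencing depth), so the values of single libraries and their standard deviation are not given. Steps between the lowest values corresponded to about 123000000 fragments for the induced and 117000000 for the non-induced group, as a rough estimate. Spi1 stood at 246 FPKM in induced and 36.0 FPKM in non-induced cells. All 9 listed markers of B cell precursors were present at 2.24 FPKM or more in both groups. Of these, 7 were called higher after induction, against 19.0% of all tested genes, per the authors' deposited table. The summed level of all 9 was 4103 FPKM in induced and 2679 FPKM in non-induced cells. Il7r, an interleukin receptor gene, was at 142 FPKM in induced and 43.5 FPKM in non-induced cells. The part of these marker differences in the proteasome values was not tested. The listed T cell markers reached at most 0.0294 FPKM and the myeloid markers at most 0.192 FPKM in induced cells, against 0.00937 and 0.0133 FPKM in non-induced cells. Of the listed erythroid markers Hbb-bt was the highest, at 0.375 FPKM in induced and 1.05 FPKM in non-induced cells. In such bulk RNA fewer cells of a type and less RNA per cell cannot be told apart.

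The proteasome is the protease that degrades proteins tagged with ubiquitin. Its core particle is a barrel of outer alpha rings, which form the gate, and inner beta rings, which hold the cutting sites. The regulatory particle sits on the end of the barrel, binds and removes ubiquitin, and unfolds the substrate with a ring of ATPases. Proteasome genes are known to be regulated together, with the transcription factor Nfe2l1 raising them when proteasome activity is low. Interferon can exchange the cutting subunits for those of the immunoproteasome.

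Few proteasome genes passed the test when PU.1 was induced, and small negative differences prevailed among them. Calls are q-values under 0.05 in genes the authors tested. On this basis 6 of the 44 tested members were called in the authors' deposited table (13.6%), 2 higher and 4 lower in induced cells, against 35.1% of all 10657 tested genes, of which 19.0% were higher and 16.1% lower. Among the 6605 tested genes with a mean of at least 10 FPKM, the range in which the members lay, 32.5% were called, 17.3% higher and 15.1% lower. The 4 that fell were Psmd7 and Psmd8 of the regulatory particle, the activator gene Psme3 and the assembly chaperone gene Psmg1. The 2 that rose were the assembly chaperone gene Psmg4 and Psmc3ip, whose symbol meets the pattern although it encodes a recombination partner and no part of the proteasome. None of the 44 was both called and 1.5-fold different, against 10.2% of all tested genes.

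The log2 changes of the tested members in the authors' deposited table ran from -0.24 (Psmg1) to 0.39 (Psmc3ip), with a median of -0.08, and 37 of the 44 were below 0. Over all tested genes the median was -0.0075 and 51.6% were below 0. Relative to that median 35 of the 44 members were lower. The absolute log2 change had a median of 0.09 over the tested members and 0.17 over all tested genes, and it was under 0.2 for 38 of 44 members (86.4%), against 56.7% of all tested genes and 65.2% of those at 10 FPKM or more. The ratio of log2 change to Cuffdiff's statistic was read as an implied standard error. It lay between 0.11 and 0.20 for all tested members other than Psmb5 (0.29) and Psmc3ip (0.30). Taken as 1.96 such errors to either side, every one of the 6 called members had an interval that included 0. The p-values of the same table are smaller than this statistic would give, so the calls rest on the p-values.

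**Figure D1:**
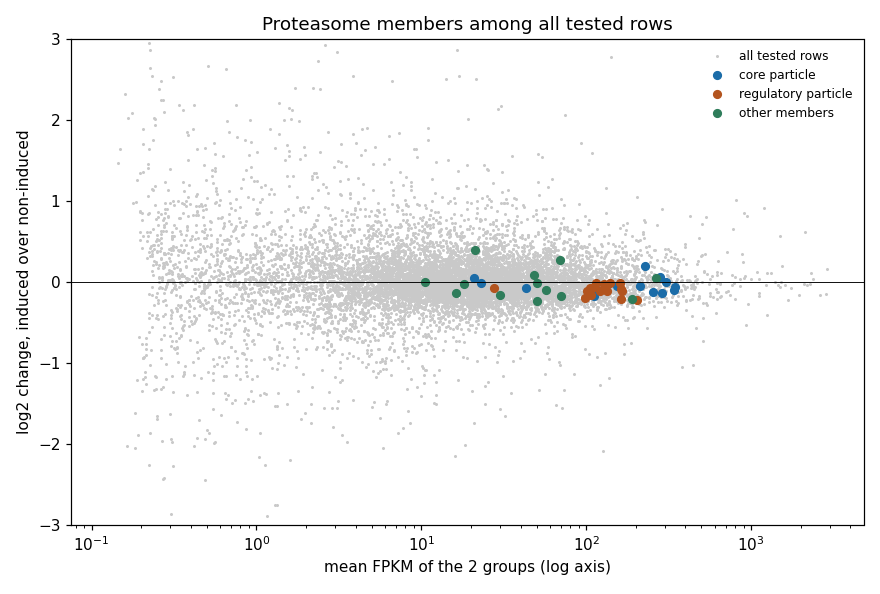
Log2 change of induced over non-induced cells (y axis) against the mean FPKM of the 2 groups (x axis, log scale) for every tested gene, with the tested proteasome members in colour, and 78 genes beyond a log2 change of 3 in either direction lie outside the plot. The members lie close to the zero line, between -0.24 and 0.39.

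The alpha ring is made of 7 different chains in most cells, and all 7 of their genes were expressed at 20.5 FPKM or more in both groups. None was called by Cuffdiff in the authors' deposited table, and 2 of the 7 had an unadjusted p under 0.05. At least 4494 of all 10657 tested genes had such a p, and the other counts of this kind stand beside that number too. Psma1 had the largest positive log2 change in the authors' deposited table, 0.19 (implied standard error 0.13, q = 0.0535), at 241 FPKM in induced and 211 FPKM in non-induced cells. Psma4 had the most negative one in the authors' deposited table, -0.17 (implied standard error 0.15, q = 0.0987), at 105 FPKM in induced and 118 FPKM in non-induced cells. These chains of one ring lay on opposite sides of 0. Psma7 was the most abundant alpha gene, at 328 FPKM in induced and 351 FPKM in non-induced cells. Psma6 was nearly equal, at 306 FPKM in both groups (log2 -0.00013 in the authors' deposited table), and Psma2 stood at 275 FPKM in induced and 302 FPKM in non-induced cells. Psma6 shares its locus with 4 other rows of the table, among them Nfkbia, and Psma3 and Psma4 share theirs with 1 other row each. Psma3 and Psma5 were far lower than the others. Psma3 stood at 23.1 FPKM in induced and 23.3 FPKM in non-induced cells, and Psma5 at 21.2 and 20.5 FPKM in the same order. Psma8, the alpha chain of male germ cells, was listed at 0 in both groups and was not tested.

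In the beta ring there was no call by Cuffdiff and no unadjusted p under 0.05 among its 7 tested genes in the authors' deposited table. The 3 genes of the cutting subunits were Psmb5 (chymotrypsin-like activity), Psmb6 (caspase-like) and Psmb7 (trypsin-like). Psmb5 stood at 111 FPKM in induced and 117 FPKM in non-induced cells, Psmb6 at 150 FPKM in induced and 156 FPKM in non-induced cells, and Psmb7 at 207 FPKM in induced and 214 FPKM in non-induced cells. Their log2 changes in the authors' deposited table were -0.08, -0.06 and -0.05. The interval of Psmb5 was wide, from -0.65 to 0.49. Among the beta genes without a cutting site Psmb4 was the highest, at 340 FPKM in induced and 353 FPKM in non-induced cells, followed by Psmb1 (286 and 273 FPKM) and Psmb2 (243 and 265 FPKM). Psmb1 was the 1 tested beta gene with a positive log2 change in the authors' deposited table (0.07). Psmb3 was the lowest, at 42.1 FPKM in induced and 44.5 FPKM in non-induced cells. Psmb11, the cutting subunit of the thymus proteasome, was listed at 0.0058 FPKM in induced and 0.0038 FPKM in non-induced cells and was not tested.

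**Figure D2:**
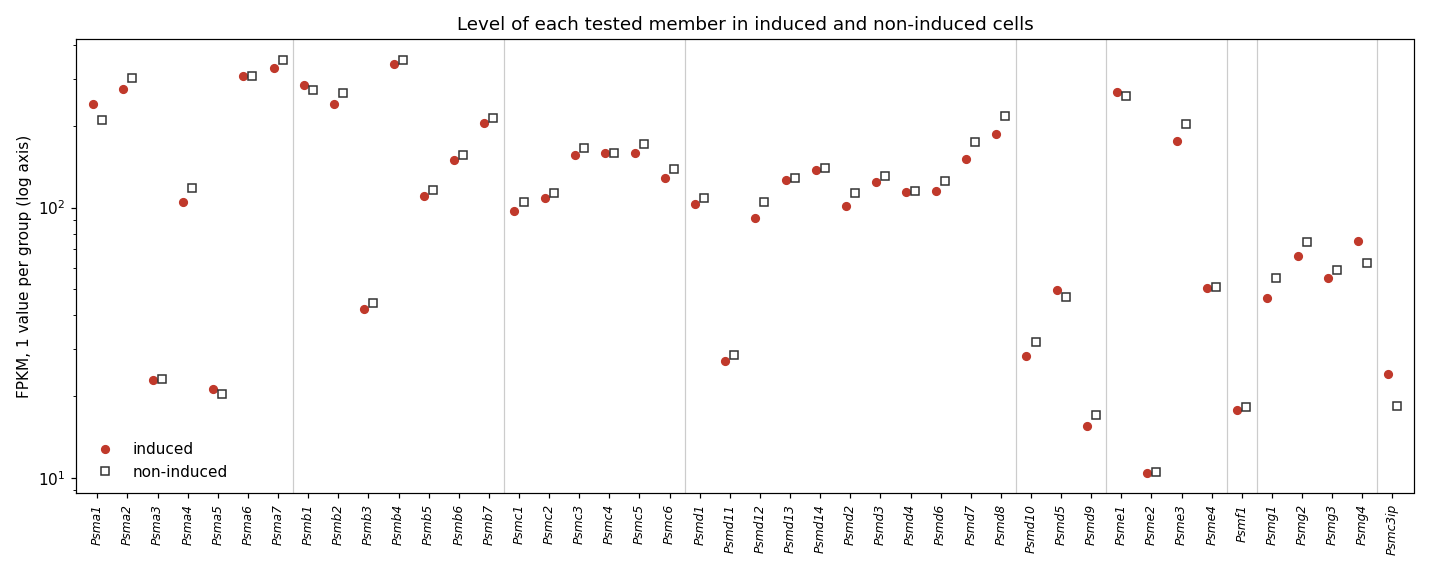
FPKM of each tested member (y axis, log scale) in induced cells (filled circles) and non-induced cells (open squares), 1 value per group, with vertical lines between the alpha ring, beta ring, regulatory ATPases, regulatory non-ATPases, base chaperones, activators, Psmf1, core chaperones and Psmc3ip. The 2 values of a gene lie close together, while the genes run from 10.4 FPKM (Psme2) to 340 FPKM (Psmb4) in induced cells.

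In the regulatory particle all 17 tested subunit genes had a log2 change below 0 in the authors' deposited table, and 2 of them passed the test. Over all tested genes 51.6% were below 0 and 35.1% were called. The ATPase ring, which unfolds substrates, is encoded by Psmc1 to Psmc6. None of these 6 was called by Cuffdiff or had an unadjusted p under 0.05 in the authors' deposited table. Their log2 changes there lay between -0.11 (Psmc1) and -0.0084 (Psmc4). Psmc4 stood at 159 FPKM in induced and 160 FPKM in non-induced cells, and Psmc1 at 96.9 FPKM in induced and 105 FPKM in non-induced cells. Psmc5 (159 and 171 FPKM), Psmc3 (157 and 167 FPKM), Psmc6 (129 and 139 FPKM) and Psmc2 (109 and 114 FPKM) were likewise a little lower in induced cells, which stand first in each pair, by less than 1 implied standard error.

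The non-ATPase subunits form the lid, which removes ubiquitin, and part of the base. Psmd8 and Psmd7, both structural subunits of the lid, fell. Psmd8, on the minus strand of chromosome 7 (29174188 to 29180701, mm10), stood at 187 FPKM in induced and 219 FPKM in non-induced cells. Its log2 change in the authors' deposited table was -0.22 with an implied standard error of 0.13 (q = 0.0226). Psmd7, the partner of the deubiquitinase Psmd14, lies on the minus strand of chromosome 8 (107580381 to 107588464, mm10) and stood at 151 FPKM in induced and 175 FPKM in non-induced cells. Its log2 change in the authors' deposited table was -0.21 with an implied standard error of 0.13 (q = 0.0356). Psmd14 itself, which cuts ubiquitin chains off substrates, had 138 FPKM in induced and 140 FPKM in non-induced cells (q = 0.923 in the authors' deposited table). The lid gene Psmd12 came next, at 91.7 FPKM in induced and 105 FPKM in non-induced cells and missed the call, with a log2 change of -0.20, an implied standard error of 0.14 and a q-value of 0.0531 in the authors' deposited table. Psmd2, a large scaffold of the base, had 101 FPKM in induced and 114 FPKM in non-induced cells, with an unadjusted p of 0.0429 and a q-value of 0.104 in the authors' deposited table. The other 6 subunits of this group were not called. The ubiquitin receptor Psmd4 stood at 114 FPKM in induced and 115 FPKM in non-induced cells, and the scaffold Psmd1 at 103 FPKM in induced and 109 FPKM in non-induced cells. The lid genes Psmd3 (124 and 131 FPKM), Psmd6 (116 and 125 FPKM) and Psmd13 (127 and 129 FPKM) are given with induced cells first. Psmd11, another lid gene, was the lowest of the particle, at 26.9 FPKM in induced and 28.5 FPKM in non-induced cells.

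Set side by side, the core particle had 0 of 14 tested genes called and a median log2 change of -0.06, and the regulatory particle had 2 of 17 called and a median of -0.09, in the authors' deposited table. Both particles lay under the 35.1% of all tested genes that were called. The medians differed by -0.03 (regulatory less core), and this difference was not tested. The median implied standard error of a single member was 0.14, which does not measure the spread of a difference between medians. The summed level of the core genes was 2677 FPKM in induced and 2755 FPKM in non-induced cells, and that of the regulatory genes was 2089 FPKM in induced and 2244 FPKM in non-induced cells. Induced less non-induced, relative to non-induced, the sums differed by -2.82% for the core and -6.92% for the regulatory genes. By the median over the genes the core was higher in induced cells, at 224 against 213 FPKM in non-induced cells, so its direction depends on the summary. These medians of levels are not matched by gene and lie between Psma1 and Psmb7 in both groups. Psma1 was higher in induced cells (241 against 211 FPKM) and Psmb7 lower (207 against 214 FPKM). Gene by gene, 11 of the 14 core genes had a log2 change below 0 and 3 above 0. The subunits of each particle are built in at equal number, yet their transcripts were not equal. The highest core gene was 16.0 times the lowest in induced and 17.2 times in non-induced cells, and the regulatory genes spanned 6.95-fold in induced and 7.68-fold in non-induced cells. The lowest core gene was Psma5, which shares 54.5% of its 50-base stretches with other genes, so that its level is uncertain. Among the 10 core genes with up to 20% of their 50-base stretches shared, the lowest was Psma4. There the span was 3.22-fold in induced and 2.98-fold in non-induced cells, a comparison chosen after seeing the data. It depends on the limit, since Psma4 (19.2% shared) was kept and Psma3 (22.0% shared) was left out. Psma3 stood at 23.1 FPKM in induced and 23.3 FPKM in non-induced cells. The same limit left the span of the regulatory genes as it was.

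Assembly factors did not move as a block. The chaperones Psmg1 and Psmg2 form a pair that assembles the alpha ring, as do Psmg3 and Psmg4. Psmg1, on the minus strand of chromosome 16 (95979933 to 95990960, mm10), fell to 46.3 FPKM in induced cells, against 54.8 FPKM in non-induced cells, with a q-value of 0.0167 in the authors' deposited table and a log2 change of -0.24 (implied standard error 0.13). Psmg4, on the plus strand of chromosome 13 (34162964 to 34178173, mm10), rose to 75.5 FPKM in induced cells, against 62.6 FPKM in non-induced cells, with a q-value of 0.0116 in the authors' deposited table and a log2 change of 0.27 (implied standard error 0.15). The partners did not pass the test. Psmg2 stood at 66.0 FPKM in induced and 74.4 FPKM in non-induced cells. Its log2 change of -0.17 had the sign of Psmg1, with an unadjusted Cuffdiff p of 0.0412 (q = 0.101 in the authors' deposited table). Psmg3 stood at 54.9 FPKM in induced and 58.8 FPKM in non-induced cells. The chaperones of the regulatory base, Psmd5, Psmd9 and Psmd10, bind ATPases during assembly. None of these 3 was called by Cuffdiff or had an unadjusted p under 0.05 in the authors' deposited table. Psmd5 stood at 49.7 FPKM in induced and 46.9 FPKM in non-induced cells, Psmd9 at 15.6 FPKM in induced and 17.1 FPKM in non-induced cells, and Psmd10 at 28.3 FPKM in induced and 31.7 FPKM in non-induced cells.

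Of the caps that open the core without ATP, 1 of 4 was called, a list too small to be read against the 35.1% of all tested genes. Psme3, the nuclear activator PA28 gamma, lies on the plus strand of chromosome 11 (101316213 to 101323537, mm10). It fell to 176 FPKM in induced cells, against 203 FPKM in non-induced cells, with a q-value of 0.0406 in the authors' deposited table and a log2 change of -0.21 (implied standard error 0.14). Psme4, the large activator PA200, was at 50.3 FPKM in induced and 50.8 FPKM in non-induced cells. Psmf1, an inhibitor of the core in vitro, was at 17.9 FPKM in induced and 18.2 FPKM in non-induced cells. Psme1 and Psme2 encode the chains of the interferon-inducible activator PA28, which join in one ring. Psme1 was at 267 FPKM in induced and 260 FPKM in non-induced cells, while Psme2 was listed at 10.4 and 10.5 FPKM in the same order.

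**Figure D3:**
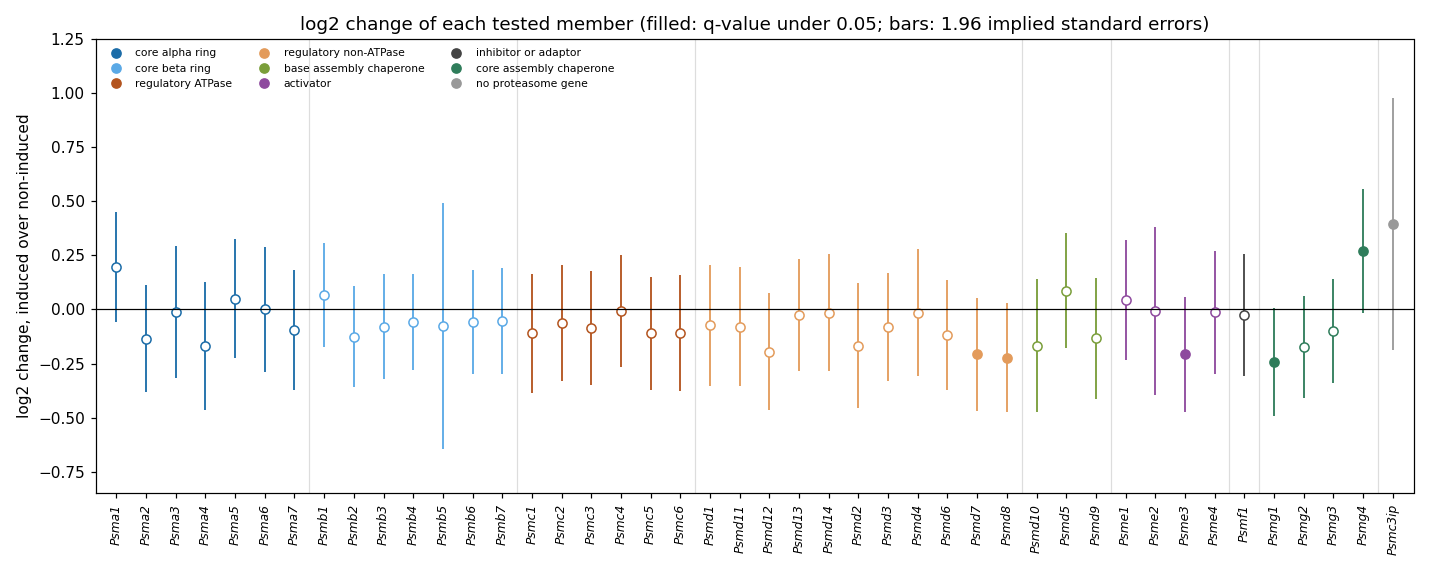
Log2 change of induced over non-induced cells for each tested member (y axis), coloured by role, with bars of 1.96 implied standard errors to either side and filled points where the q-value was under 0.05. Of 44 points 37 lie below 0, all 17 of the regulatory particle among them, and every bar crosses 0.

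The low level of Psme2 stood beside a high level of the row that holds its copy Psme2b. Psme2 lies on chromosome 14 (55587441 to 55591113, minus strand, mm10) and Psme2b on chromosome 11 (48945354 to 48946190, minus strand, mm10). In the table Psme2b is found in a row of 3 symbols, at 200 FPKM in induced and 216 FPKM in non-induced cells, and that row had a q-value of 0.328 in the authors' deposited table. The level of Psme2b alone is therefore not known. The longest open reading frames of both genes are 720 bases long and differ at 5 of them, with an identical run of 311 bases. Bases 424 to 543 of both frames, the stretch of 120 bases with the most differences, are shown. Only fragments that cover none of the differences could come from either gene. Capitals mark the 3 differences there.
Psme2: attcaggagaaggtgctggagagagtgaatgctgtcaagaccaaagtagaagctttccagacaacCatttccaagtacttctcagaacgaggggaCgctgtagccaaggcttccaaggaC
Psme2b: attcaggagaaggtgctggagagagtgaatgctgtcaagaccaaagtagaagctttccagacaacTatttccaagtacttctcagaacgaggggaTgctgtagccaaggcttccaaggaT

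Other members have annotated copies as well, most of them processed pseudogenes. The transcripts of each member were cut into all runs of 50 bases, and the share of these 50-mers that also occurs in transcripts of another GENCODE gene was counted. It was 0% for 25 of the 46 members, and over 20% for 7 of them, a limit chosen after the shares were seen. Psmb3 shared 55.8% of its 50-mers, Psme2 54.9%, Psma5 54.5% and Psmb5 54.1%. Psmd2 shared 25.6%, Psma3 22.0% and Psmg3 21.8%. For Psma5 the largest overlap was with the processed pseudogene Gm8394 and for Psmb5 with Gm3375, and neither has a row in the table. The 5 tested core and regulatory genes over 20% had a median of 42.1 FPKM in induced and 44.5 FPKM in non-induced cells. The other 26 had a median of 151 FPKM in induced and 158 FPKM in non-induced cells. The low levels of Psma3, Psma5, Psmb3 and Psme2 are therefore uncertain, and the sources used here do not say how fragments that fit several places were counted. The part of these copies in the levels was not tested. Psmd11, which shared 12.5% of its 50-mers, stood at 26.9 FPKM in induced and 28.5 FPKM in non-induced cells. None of the 6 called members exceeded 0%.

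**Figure D4:**
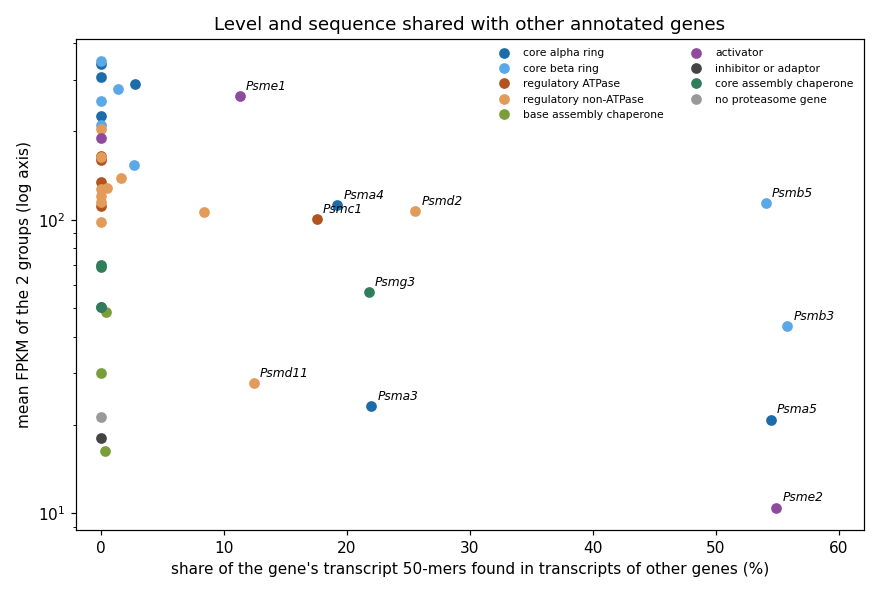
Mean FPKM of the 2 groups (y axis, log scale) against the share of a gene's transcript 50-mers found in transcripts of other annotated genes (x axis, %), 1 point per tested member, coloured by role. Psme2, Psma5 and Psmb3 combine shares of 54.5% to 55.8% with levels under 45 FPKM, and Psmb5 has a like share at 111 to 117 FPKM.

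Psmc3ip, which acts in meiotic recombination, had the largest log2 change of the 44 tested members in the authors' deposited table. It stood at 24.2 FPKM in induced and 18.4 FPKM in non-induced cells, with a log2 change of 0.39, an implied standard error of 0.30 and a q-value of 0.0479 in the authors' deposited table. It lies on the minus strand of chromosome 11 (101091823 to 101095436, mm10) and shares its locus in the table with Mlx, which was at 25.8 FPKM in induced and 27.1 FPKM in non-induced cells and was not called. Without Psmc3ip 1 of 43 tested members rose and 4 fell.

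Upstream sequences from RefSeq (GRCm38.p6) were found for 38 of the 46 members. The 250 bases before each start were searched on both strands for TGACNNNGC (the antioxidant response element bound by Nfe2l1 and Nfe2l2), CCAAT (the NF-Y box), CCGGAAGT (an ETS motif) and GAGGAAGT (a PU.1-type ETS motif). Several members have more than 1 start, and 40 promoters of 37 proteasome genes entered the count, Psmc3ip not included. The antioxidant response element was found in 5 of the 40 (12.5%), against 10.2% of all 32851 promoters and 12.0% of those of tested genes. CCAAT was found in 13 (32.5%), against 33.8% and 36.0%. CCGGAAGT was found in 6 (15%), against 2.88% of all promoters and 6.51% of those of tested genes. Psmc2 holds 2 of these 6 promoters, and counted by gene CCGGAAGT was in 5 of 37, against 611 of 8015 tested genes. GAGGAAGT was found in 3 promoters (7.5%), against 2.44% and 2.55%. The genes with GAGGAAGT were Psma6, Psmc1 and Psmc2, and none of them was called. A match is a description of letters only. Of the called members with an upstream sequence, Psme3 and Psmc3ip each held a CCAAT box, and Psmd8, Psmg1 and Psmg4 held none of the 4 motifs.

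The upstream sequences below are those of the called genes with a match, Psmc3ip and Psme3, and of Psmc2 and Psmd12, which were added after the matches were seen because they hold ETS motifs without a call. Capitals mark the matches on either strand, and no matches overlap. Positions count back from -1, the base before the start. In Psmc2 the ETS motif begins at -85, the CCAAT box at -28 and the PU.1-type motif at -9. In Psmd12 the antioxidant response element begins at -247 and the ETS motif at -18. The CCAAT box begins at -14 in Psme3 and at -36 in Psmc3ip.
Psme3, chr11:101315963-101316212, plus strand: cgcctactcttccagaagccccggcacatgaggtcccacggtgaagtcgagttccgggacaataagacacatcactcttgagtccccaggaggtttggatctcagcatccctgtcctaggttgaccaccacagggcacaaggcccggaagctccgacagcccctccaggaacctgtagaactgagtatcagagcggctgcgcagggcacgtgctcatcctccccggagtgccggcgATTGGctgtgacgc
Psmc3ip, chr11:101095436-101095685, minus strand: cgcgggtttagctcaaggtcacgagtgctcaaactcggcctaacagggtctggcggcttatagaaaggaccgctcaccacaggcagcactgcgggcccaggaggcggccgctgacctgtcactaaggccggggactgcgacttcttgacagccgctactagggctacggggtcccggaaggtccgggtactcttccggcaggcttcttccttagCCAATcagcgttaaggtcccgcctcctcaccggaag
Psmc2, chr5:21785025-21785274, plus strand: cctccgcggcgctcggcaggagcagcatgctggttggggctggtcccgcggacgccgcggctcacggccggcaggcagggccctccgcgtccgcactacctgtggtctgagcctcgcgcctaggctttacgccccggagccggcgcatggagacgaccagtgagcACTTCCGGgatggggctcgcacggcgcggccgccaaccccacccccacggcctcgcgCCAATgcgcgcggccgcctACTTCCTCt
Psmd12, chr11:107479278-107479527, plus strand: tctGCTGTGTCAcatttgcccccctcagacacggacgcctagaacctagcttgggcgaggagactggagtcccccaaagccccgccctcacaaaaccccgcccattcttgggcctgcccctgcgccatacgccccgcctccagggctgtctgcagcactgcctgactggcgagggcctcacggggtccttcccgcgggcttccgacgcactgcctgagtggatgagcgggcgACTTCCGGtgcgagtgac

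The counts for genes that work with the proteasome stand beside the 35.1% of all tested genes that were called, and lists with 5 or 6 tested genes are too small to be read against that share. Of 11 remaining subunits and partners, all tested, none was called by Cuffdiff or had an unadjusted p under 0.05 in the authors' deposited table. This list holds the ubiquitin receptor Adrm1 (7.70 FPKM in induced and 7.90 FPKM in non-induced cells), the lid peptide gene Shfm1 (647 and 655 FPKM), the core maturation factor Pomp (361 and 386 FPKM) and the deubiquitinase Usp14 (58.1 and 61.3 FPKM), named after their values were seen. Of 9 listed regulators of proteasome genes 6 were tested and 1 was called. Nfe2l2, which activates antioxidant genes, fell to 35.1 FPKM in induced cells, against 47.5 FPKM in non-induced cells, with a q-value of 0.000287 in the authors' deposited table and a log2 change of -0.44 (implied standard error 0.14). Nfe2l1 was at 25.1 FPKM in induced and 25.4 FPKM in non-induced cells and was not called. Of the ubiquitin genes and ubiquitin-activating enzymes 5 were tested and 1 was called, Uba1, the main activating enzyme, which fell to 140 FPKM in induced cells, against 165 FPKM in non-induced cells (log2 -0.23, q = 0.0162 in the authors' deposited table). Among 10 tested shuttle and unfoldase genes the call was Ubqln4, a carrier of ubiquitinated proteins, at 42.5 FPKM in induced and 55.0 FPKM in non-induced cells (log2 -0.37, q = 0.000287 in the authors' deposited table). Vcp, the unfoldase of this list, stood at 57.3 FPKM in induced and 63.2 FPKM in non-induced cells and was not called.

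The immunoproteasome subunits lay on the other side of 0 from the cutting subunits they replace, a difference that was not tested. Apart from Psmb9, all of these genes lay within 1 implied standard error of 0. Of the 3 immunoproteasome genes 1 was called, a list too small to be read against the 35.1% of all tested genes. Psmb9, the counterpart of Psmb6, rose to 213 FPKM in induced cells, against 177 FPKM in non-induced cells (log2 0.27, q = 0.00515 in the authors' deposited table). Psmb8 (361 and 334 FPKM, log2 0.11, implied standard error 0.12) and Psmb10 (85.4 and 82.4 FPKM, log2 0.05, implied standard error 0.12) were not called, with induced cells first.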

How the data were processed

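Stranded mRNA libraries, 3 per group, had been made from induced and non-induced i660BM cells, per the labels' protocols. Per the submitters' processing notes the tools were Cuffdiff 2.1.1 and Cufflinks, TopHat2 2.0.9 and Trim Galore 0.2.8.1, with build mm10. The sources used here give neither the annotation nor the use of strand. Each group has 1 deposited FPKM per gene, computed by the authors with Cuffdiff. Per the file headers the authors also gave a log2 fold change, a statistic (a score), a p-value and a q-value. The q-values were recomputed from the authors' p-values over all 10657 tested rows and differed by at most 5.15e-07. Cuffdiff's p-values corresponded to normal deviates 1.68 times the deposited statistic (median over tested rows with p under 0.5), so the implied standard errors are wider than the p-values would give (median of the members 0.14 against 0.08). The labels do not say whether libraries came from separate cultures, so p-values may measure technical spread. No test was made here, because no value per library was used. Every member was named, and other pathway genes by size of change among called genes. Genes without a call, such as Nfe2l1, Vcp, Adrm1, Psmb8 and Psmb10, were named outside that rule. Members and lists were chosen with earlier results of these data known. The recomputed adjustment was tested on simulated data. Depth was estimated from FPKM times length in genes with 1 transcript: 66.3% of low values in induced and 71.0% in non-induced cells lay within 0.15 of a whole number of fragments. Coordinates of all 46 members and transcripts are from GENCODE M21 (mm10). Alternatives covered the q threshold, p-values, a fold minimum, low values, shared loci, a pseudocount and centring. Python 3.11.15, pandas 2.3.3, scipy 1.17.1 and matplotlib 3.10.9 were used.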

Additional observations from a re-analysis of the deposited data

How the results depend on the processing

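The count of members called higher, 2 of 44, was 0 at a q-value under 0.01, 0 with normal p-values from the statistic, 0 at 1.5-fold, 1 without rows that share a locus and 1 without Psmc3ip. The count called lower, 4, was 0 at a q-value under 0.01, 0 with normal p-values and 0 at 1.5-fold, and stayed at 4 under the other 3 settings. Over all tested genes 3744 were called, against 2759 at a q-value under 0.01, 1612 with normal p-values and 1086 at 1.5-fold. The log2 ratio of core levels was -0.041 by sums and 0.075 by the medians of levels, which are not matched by gene, a change of sign. The median log2 changes of all members, core and regulatory particle kept their sign under each alternative run. No paired analysis was possible because the table has 1 column per group, and leaving out single libraries was not run for the same reason. The level of genes with near-identical copies limits the comparison of levels between subunits.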

Other observations

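Psmc3, an ATPase gene of the regulatory particle, is the member nearest to Spi1. It ends 16.0 kb before Spi1 begins on the plus strand of chromosome 2 (91054009 to 91066369 for Psmc3, 91082390 to 91115756 for Spi1, mm10). Psmc3 stood at 157 FPKM in induced and 167 FPKM in non-induced cells, and its log2 change in the authors' deposited table was -0.09 (implied standard error 0.13), against 2.78 for Spi1. The values do not separate transcripts of the native Spi1 gene from those of the PU.1 that doxycycline switches on. The change at the native gene is therefore not known.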
